A study of Mus musculus with 4 samples.

Results

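The genes described here are 10 parts of the cyclic AMP (cAMP) pathway, taken by symbol from the 22083 genes with a value in the deposited table. They are the adenylyl cyclase gene Adcy7, the protein kinase A (PKA) subunit genes Prkaca and Prkar1a, the phosphodiesterase genes Pde3b, Pde4a, Pde4b and Pde4d, the transcription factor genes Creb1 and Crem, and the kinase gene Sik1. All 10 had a row in the table. RNA was sequenced from group 2 innate lymphoid cells (ILC2s), tissue-resident lymphocytes that make type 2 cytokines, in 2 libraries per tissue. SI-ILC2s were sorted from small intestinal lamina propria and WAT-ILC2s from mesenteric white adipose tissue. All mice were wild-type C57BL/6 animals aged 9 weeks, and no treatment is named. The labels state neither the sorting markers nor the number of mice per library. They also do not say that replicates were separate animals, so the p-values describe the spread among these 4 libraries, and this spread may be technical.

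Cyclic AMP is made by adenylyl cyclases when receptors coupled to the stimulatory G protein are engaged, and it is broken down by phosphodiesterases. It releases the catalytic subunits of PKA from the regulatory subunits that hold them inactive, and free catalytic subunits phosphorylate CREB, which then switches on genes with a cAMP response element. Several products of those genes, among them PDE4 enzymes, an inhibitory form of CREM and SIK1, feed back on the pathway. In ILC2s, prostacyclin, a signal that raises cAMP, is known to restrain cytokine output.

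Values are RPKM, reads divided by gene length and library depth, which can be set side by side between genes. The gene lengths used are not known here, so ratios between different genes are approximate. Pde4b, Pde4d, Pde4a and Prkar1a, 4 of the 10 genes, were higher in SI-ILC2s. Adcy7, Prkaca and Creb1, 3 of the 10, were higher in WAT-ILC2s, and Crem, Pde3b and Sik1 did not pass the test. A gene was called higher where limma, fitted to log2(RPKM + 1) of all 8230 tested genes, gave a Benjamini-Hochberg adjusted p below 0.05. The calls toward SI-ILC2s made up 40% of the 10 genes, against 17.9% of all tested genes, and those toward WAT-ILC2s made up 30%, against 29.6%. In either direction 47.5% of all tested genes were called. For 5 of the 10 genes each SI-ILC2 value exceeded each WAT-ILC2 value (29.8% of all tested genes), and for 4 the reverse held (45.9% of all tested genes), so that Sik1 alone had overlapping libraries. Because the whole population of sorted cells was sequenced, fewer cells expressing a gene and less RNA per cell cannot be told apart.

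**Figure D1:**
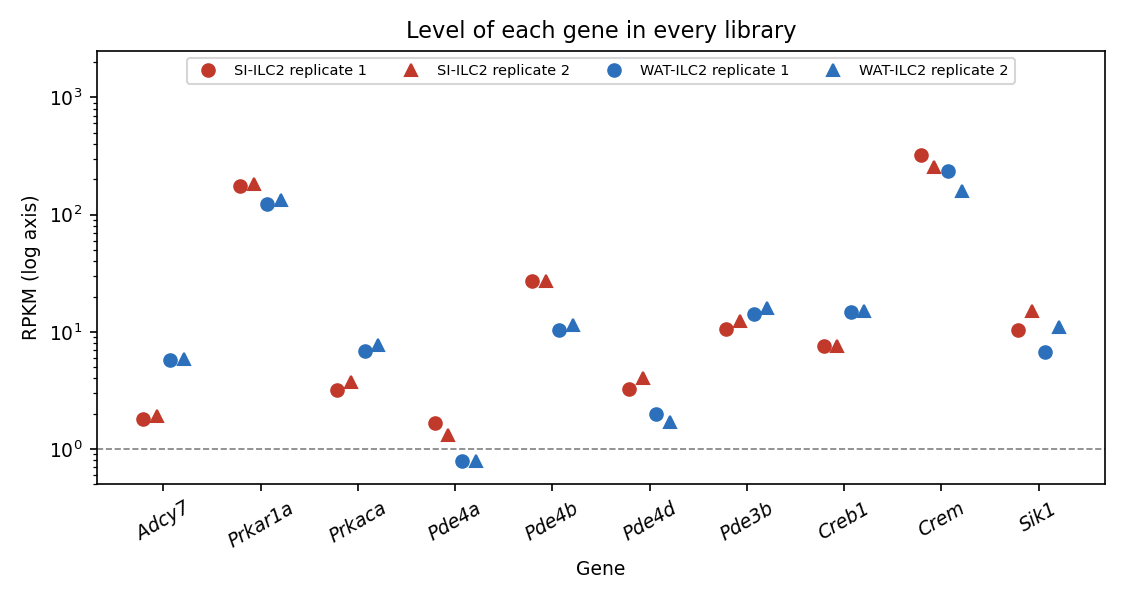
Level of the 10 genes in each of the 4 libraries, in RPKM on a log axis. Red symbols are SI-ILC2s, blue symbols WAT-ILC2s, circles replicate 1 and triangles replicate 2, and the dashed line marks 1 RPKM. Crem and Prkar1a lie above 100 RPKM in every library, Pde4a lies below 1 RPKM in both WAT-ILC2 libraries, and Sik1 is the gene whose tissues overlap.

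Levels spanned a wide range. Crem and Prkar1a were at the percentiles 99.0 and 98.3 of the tested genes by mean RPKM, Pde4b at 87.1, Pde3b at 81.7, Creb1 at 78.6 and Sik1 at 77.7. Prkaca was at 58.8, Adcy7 at 47.9, Pde4d at 36.7 and Pde4a at 8.5. The step size of low values put the depth at about 56000000 to 76100000 reads per library, and at that depth the lowest value of the set, Pde4a in WAT-ILC2 replicate 1, stood for about 336 reads, while Crem stood for 61553 reads or more in each library. Values are sums over a gene's isoforms, and the inhibitory short form of Crem was not separated from the others.

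The letters of the cAMP response element were looked up in promoter windows from RefSeq (GRCm38.p6), which run from 250 bases before to 50 bases after each annotated start. The full element is TGACGTCA, a palindrome, and its core is TGACG, or CGTCA on the opposite strand, which each full element also contains. Windows were at hand for 7 of the 10 genes, 20 windows in all. Crem, Sik1 and Pde3b had no window and were not searched. The core was in 7 of these 20 windows, against 20.8% of all 32851 windows, and the full element in 2, against 1.79%. Those 2 windows overlap on Prkar1a and share a single element. By gene, 5 of the 7 genes had the core in at least 1 window, against 23.0% of 27025 genes, but these 7 genes have up to 6 windows each. Creb1 and Pde4d, with 1 window each, lacked the core. A match is a description of letters, and binding was not measured. The sites of Pde4a, Pde4b and Prkar1a, all higher in SI-ILC2s, are shown first as 30 bases around the match, followed by the 250 bases before a start of Adcy7 and Prkaca, which were higher in WAT-ILC2s. All are on the plus strand, and capitals mark the core or the full element.
Pde4a, chr9:21184039-21184068: ggcacagctcgaCGTCAggctggggaggag
Pde4b, chr4:102421509-102421538: gatttggctgcaCGTCAattttctcatctg
Prkar1a, chr11:109650889-109650918: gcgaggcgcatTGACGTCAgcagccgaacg
Adcy7, chr8:88282742-88282991: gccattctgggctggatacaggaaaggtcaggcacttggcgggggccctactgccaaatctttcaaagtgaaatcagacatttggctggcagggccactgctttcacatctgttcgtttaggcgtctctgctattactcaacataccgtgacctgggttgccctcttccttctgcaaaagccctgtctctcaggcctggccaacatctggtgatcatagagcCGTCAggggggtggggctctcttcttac
Prkaca, chr8:83972728-83972977: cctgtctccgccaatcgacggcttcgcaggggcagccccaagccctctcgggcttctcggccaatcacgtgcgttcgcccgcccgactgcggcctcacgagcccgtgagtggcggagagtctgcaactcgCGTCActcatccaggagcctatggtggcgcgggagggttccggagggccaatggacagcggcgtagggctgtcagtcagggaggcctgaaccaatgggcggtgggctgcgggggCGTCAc
The core thus stood in windows of genes that were higher in either tissue. The matches shown begin 50 bases before a start in Pde4a, 34 in Pde4b, 49 in Prkar1a, 28 in Adcy7, and 120 and 6 in Prkaca. In the overlapping window, the Prkar1a element begins 39 bases after the start. Prkar1a also had cores that are not shown, 187 bases before the first of these starts and 151 bases before another. Which start was used in these cells cannot be read from values per gene.

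Transcripts of adenylyl cyclases that passed the test were lower in SI-ILC2s. Adcy7 (chromosome 8, 88272403 to 88329962), an adenylyl cyclase typical of haematopoietic cells, was at 1.82 and 1.92 RPKM in the SI-ILC2 libraries and at 5.79 and 5.87 in the WAT-ILC2 libraries. The libraries of each tissue lay close together and far from the other tissue, with a mean 3.12 times as high in WAT-ILC2s. On the log2(RPKM + 1) scale the SI-ILC2 mean minus the WAT-ILC2 mean was -1.25 (SE 0.14, 95% interval -1.58 to -0.92, adjusted p = 0.0011), the largest of the 10 toward WAT-ILC2s. Adcy7 was also the most abundant of the 10 cyclase genes, with 42.8% to 60.9% of their summed RPKM in each library.

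Of the 10 cyclase genes, 3 passed the filter of at least 1 RPKM in at least 2 libraries. Of these, 2 were higher in WAT-ILC2s and none in SI-ILC2s, beside 29.6% and 17.9% of all tested genes. The other called cyclase gene was Adcy4, at 0.41 and 0.57 RPKM in SI-ILC2s, compared with 1.24 and 1.46 in WAT-ILC2s (log2 difference -0.65, adjusted p = 0.0070), which passed the filter through its WAT-ILC2 libraries only. Adcy3 was at 0.86 and 1.32 against 1.29 and 1.75 RPKM (adjusted p = 0.21). The summed RPKM of all 10 cyclase genes was 3.61 and 4.49 in SI-ILC2s, compared with 9.51 and 10.5 in WAT-ILC2s. With both SI-ILC2 values below 1 RPKM, Adcy4 was tested only because its WAT-ILC2 values were higher. The count of calls among the cyclases is thus no support beyond Adcy7 itself.

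Among the G protein alpha subunits that control the cyclases, 2 of 4 tested genes were higher in WAT-ILC2s and none in SI-ILC2s. These counts stand beside 29.6% and 17.9% of all tested genes. Gnai2, an inhibitory subunit, was at 37.8 and 35.7 RPKM in SI-ILC2s, compared with 63.97 and 68.9 in WAT-ILC2s (log2 difference -0.84, adjusted p = 0.0045), and Gnal, a stimulatory subunit, at 3.06 and 2.82 against 6.01 and 5.97 (log2 difference -0.83, adjusted p = 0.0045). Gnai3, another inhibitory subunit, leaned the other way without overlap, at 108.5 and 117.7 against 81.5 and 92.5 RPKM (log2 difference 0.38, adjusted p = 0.088), and it passed toward SI-ILC2s with median-of-ratios scaling (0.027). Gnas, the main stimulatory subunit, was at 93.4 and 132.9 RPKM in SI-ILC2s, compared with 96.2 and 118.7 in WAT-ILC2s (adjusted p = 0.84), with tissues that overlapped. Genes of receptors coupled to the stimulatory G protein were called in both directions. Ptgir, the prostacyclin receptor, was at 6.61 and 8.52 RPKM in SI-ILC2s, compared with 50.9 and 56.04 in WAT-ILC2s (log2 difference -2.68, adjusted p = 2.4e-04). Vipr2 and Ptger4, receptors for vasoactive intestinal peptide and prostaglandin E2, were higher in SI-ILC2s, with log2 differences of 0.68 (adjusted p = 0.019) and 0.91 (adjusted p = 0.043, or 0.085 after rescaling to equal sums). Calcrl, a receptor for calcitonin gene-related peptide, was higher in WAT-ILC2s (log2 difference -1.03, adjusted p = 0.0028).

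Of the PKA subunit genes, Prkar1a was higher in SI-ILC2s, and both catalytic subunit genes were higher in WAT-ILC2s. Prkar1a (chromosome 11, 109649405 to 109669656), the type I alpha regulatory subunit, was at 175 and 182 RPKM in SI-ILC2s, compared with 123 and 133 in WAT-ILC2s. Its mean was 1.40 times as high in SI-ILC2s, and the tissues did not overlap. The log2 difference of 0.48 (SE 0.15, 95% interval 0.11 to 0.85) passed the test by a small margin, with an adjusted p of 0.043. The call was lost with quantile normalization (adjusted p = 0.14), after rescaling to equal sums (0.13), without the filter on low values (0.1), and without SI-ILC2 replicate 1 (0.23), SI-ILC2 replicate 2 (0.27) or WAT-ILC2 replicate 1 (0.1). The other regulatory subunit gene tested, Prkar2a, was at 1.95 and 2.51 RPKM in SI-ILC2s, compared with 2.26 and 2.75 in WAT-ILC2s (adjusted p = 0.56).

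Prkaca (chromosome 8, 83972993 to 83996443), the alpha catalytic subunit, was at 3.17 and 3.72 RPKM in SI-ILC2s, compared with 6.81 and 7.75 in WAT-ILC2s. WAT-ILC2 libraries were thus above both SI-ILC2 libraries, with a mean 2.12 times as high (log2 difference -0.90, SE 0.15, 95% interval -1.26 to -0.53, adjusted p = 0.0046). Prkacb, the beta catalytic subunit, moved the same way, from 27.9 and 29.96 RPKM in WAT-ILC2s to 10.2 and 13.8 in SI-ILC2s (log2 difference -1.22, SE 0.17, adjusted p = 0.0026). Both calls held in each of the scalings tried.

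Summed over the family, regulatory subunit transcripts were at 177.0 and 184.5 RPKM in SI-ILC2s, compared with 125.4 and 136.1 in WAT-ILC2s, of which Prkar1a held 97.4% to 98.7%. Catalytic subunit transcripts were at 13.4 and 17.5 RPKM in SI-ILC2s, compared with 34.7 and 37.7 in WAT-ILC2s, of which Prkacb held 76.3% to 80.4%. The ratio of regulatory to catalytic transcripts was 13.2 and 10.6 in SI-ILC2s, and 3.61 in each WAT-ILC2 library. A ratio within a library is the same under any scaling by 1 factor per library, which quantile normalization is not. For a ratio or share, exact permutation of 2 and 2 libraries cannot reach a two-sided p below 0.33, so these are given as values.

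**Figure D2:**
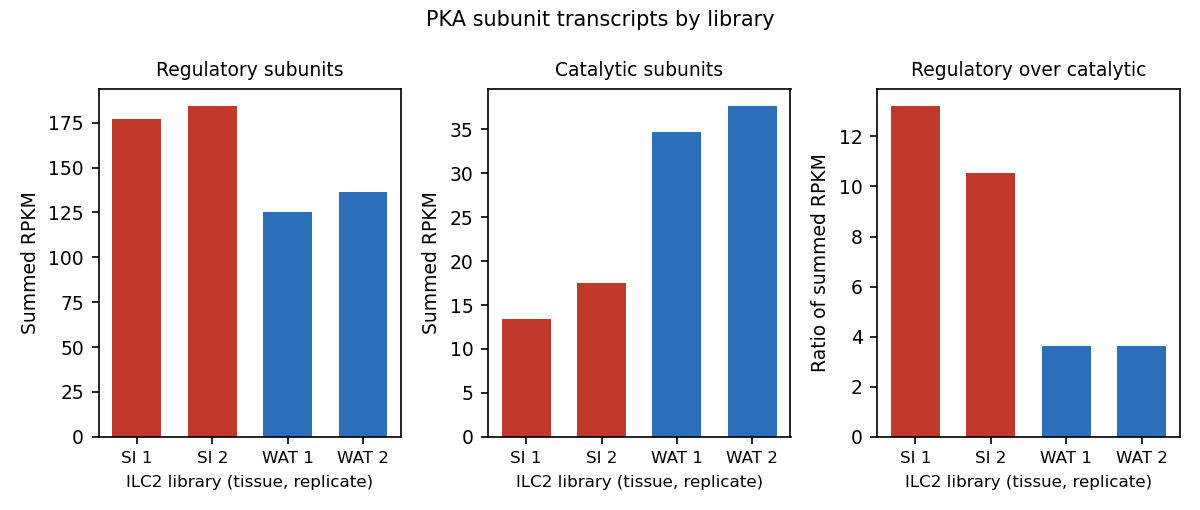
Summed RPKM of the 4 regulatory subunit genes and of the 2 catalytic subunit genes of PKA, and their ratio, with 1 bar per library (red for SI-ILC2s, blue for WAT-ILC2s). Regulatory transcripts are higher and catalytic transcripts lower in the SI-ILC2 libraries, and the ratio is 13.2 and 10.6 there, against 3.61 in each WAT-ILC2 library.

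Of all 6 tested genes of PKA subunits and inhibitors, 1 passed toward SI-ILC2s and 3 toward WAT-ILC2s, beside 17.9% and 29.6% of all tested genes. Pkig, an inhibitor of the catalytic subunit, was the remaining call, at 1.82 and 1.69 RPKM in SI-ILC2s, compared with 2.59 and 3.08 in WAT-ILC2s (log2 difference -0.47, adjusted p = 0.034). This call was lost with median-of-ratios scaling (adjusted p = 0.09) and quantile normalization (0.11). Anchoring proteins, which hold PKA at particular places in the cell, had 2 of 6 tested genes called toward SI-ILC2s and none toward WAT-ILC2s. The same shares over all tested genes were 17.9% and 29.6%. Akap12 was at 4.65 and 4.63 against 2.09 and 2.16 RPKM (log2 difference 0.85, adjusted p = 0.0039). Akap13 was at 8.70 and 10.97 against 5.82 and 6.81 RPKM (log2 difference 0.56, adjusted p = 0.033), a call lost after rescaling to equal sums (adjusted p = 0.099). The genes of the other cAMP sensors, Rapgef3 and Rapgef4, stayed at or below 0.255 RPKM in all 4 libraries.

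Transcripts of the 3 tested PDE4 enzymes, which act on cAMP alone and are the main cAMP phosphodiesterases of many leukocytes, were higher in SI-ILC2s. Pde4b (chromosome 4, 102087543 to 102607259) was at 27.09 and 27.07 RPKM in the SI-ILC2 libraries and at 10.3 and 11.3 in the WAT-ILC2 libraries. The SI-ILC2 values were almost equal to each other and 2.50 times the WAT-ILC2 mean (log2 difference 1.25, SE 0.14, 95% interval 0.92 to 1.57, adjusted p = 0.0011). This was the largest of the 10 differences toward SI-ILC2s, and it passed in every alternative tried.

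Pde4d (chromosome 13, 108449948 to 109953461) was at 3.26 and 4.05 RPKM in SI-ILC2s, compared with 1.97 and 1.69 in WAT-ILC2s. The tissues did not overlap, and the mean was 2.00 times as high in SI-ILC2s (log2 difference 0.72, SE 0.16, 95% interval 0.34 to 1.09, adjusted p = 0.012). Without SI-ILC2 replicate 2 the adjusted p was 0.06.

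Pde4a (chromosome 9, 21165714 to 21213248) was the least abundant gene of the set, at 1.68 and 1.33 RPKM in SI-ILC2s, compared with 0.786 and 0.791 in WAT-ILC2s. The mean was 1.91 times as high in SI-ILC2s (log2 difference 0.48, SE 0.13, 95% interval 0.17 to 0.79, adjusted p = 0.023). Pde4a passed the filter only through the SI-ILC2 libraries, so its difference is no support for the count above, which is 3 of 9 genes without it. Its call was lost without SI-ILC2 replicate 1 (adjusted p = 0.11) and without the filter (0.08). Pde4c, the remaining PDE4 gene, was at 0.191 RPKM or less in all libraries.

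Within the PDE4 family Pde4b was the largest part in each library. It held 84.2% and 83.2% of their summed RPKM in SI-ILC2s, compared with 77.8% and 81.5% in WAT-ILC2s, and Pde4d held 10.1% and 12.4% against 14.9% and 12.1%. For Pde4d the tissues overlapped in this share. The sum of the 4 genes was 32.2 and 32.5 RPKM in SI-ILC2s, compared with 13.3 and 13.9 in WAT-ILC2s.

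Pde3b (chromosome 7, 114415281 to 114539251), a phosphodiesterase inhibited by cyclic GMP and prominent in fat cells, was at 10.6 and 12.4 RPKM in SI-ILC2s, compared with 14.2 and 15.9 in WAT-ILC2s. It leaned opposite to the PDE4 genes without overlap, but its log2 difference of -0.37 (SE 0.15, 95% interval -0.73 to -0.0043) had an adjusted p of 0.086. It passed after rescaling to equal sums (adjusted p = 0.044), and with median-of-ratios scaling the adjusted p was 0.32. The 7 adipocyte markers looked up, among them Adipoq, Plin1 and Lep, stayed below 1 RPKM in every library and summed to 0.885 and 0.631 RPKM in SI-ILC2s, compared with 1.07 and 1.39 in WAT-ILC2s.

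Of the 16 genes of phosphodiesterases that hydrolyse cAMP, 10 were tested, and 6 passed toward SI-ILC2s, 2 toward WAT-ILC2s and 2 in neither direction. Over all tested genes, 17.9% passed toward SI-ILC2s and 29.6% toward WAT-ILC2s. Of the 6, Pde4a and Pde1c passed the filter only through the SI-ILC2 libraries, where they are high. Without these 2 genes the count toward SI-ILC2s was 4 of 8, with a median log2 difference of 0.32. The 4 include Pde4b and Pde4d, and the 8 also include Pde3b, so these values are not separate from the 10 genes. The median of all tested genes was -0.15, with genes that passed the filter through 1 tissue only left in. Besides the PDE4 genes, the SI-ILC2 side held Pde2a, Pde7b and Pde1c. Pde2a, which cyclic GMP stimulates, was at 4.73 and 6.22 against 1.5998 and 2.17 RPKM (log2 difference 1.16, adjusted p = 0.0037). Pde7b was at 6.42 and 6.37 against 2.49 and 2.14 RPKM (log2 difference 1.16, adjusted p = 0.0016). Pde1c, a calcium and calmodulin-dependent enzyme, was at 3.39 and 3.68 against 0.304 and 0.285 RPKM (log2 difference 1.81, adjusted p = 3.0e-04).

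On the WAT-ILC2 side stood Pde7a, a cAMP-specific enzyme, at 14.8 and 13.9 RPKM in SI-ILC2s, compared with 33.5 and 35.3 in WAT-ILC2s (log2 difference -1.21, SE 0.13, adjusted p = 0.0012). The paralogs Pde7a and Pde7b thus differed in opposite directions. Pde1b was the other, at 1.43 and 1.08 against 2.31 and 1.90 RPKM (adjusted p = 0.044), a call lost with median-of-ratios scaling (0.12) and quantile normalization (0.17). Pde8a, at 3.59 and 3.45 against 4.81 and 2.93 RPKM, had an adjusted p of 0.77 and overlapping tissues.

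The summed RPKM of the 16 phosphodiesterase genes was nearly the same in both tissues, at 78.4 and 80.7 in SI-ILC2s, compared with 73.6 and 75.6 in WAT-ILC2s, while its make-up differed. The PDE4 genes together held 41.1% and 40.3% of the sum in SI-ILC2s, compared with 18.04% and 18.4% in WAT-ILC2s. Pde7a held 18.9% and 17.2% in SI-ILC2s, compared with 45.6% and 46.7% in WAT-ILC2s. Pde4b was thus the most abundant of these genes in SI-ILC2s and Pde7a in WAT-ILC2s. Pde3b held 13.5% and 15.4% against 19.3% and 21.1%. The ratio of Pde4b to Pde7a was 1.83 and 1.95 in SI-ILC2s, compared with 0.308 and 0.322 in WAT-ILC2s.

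**Figure D3:**
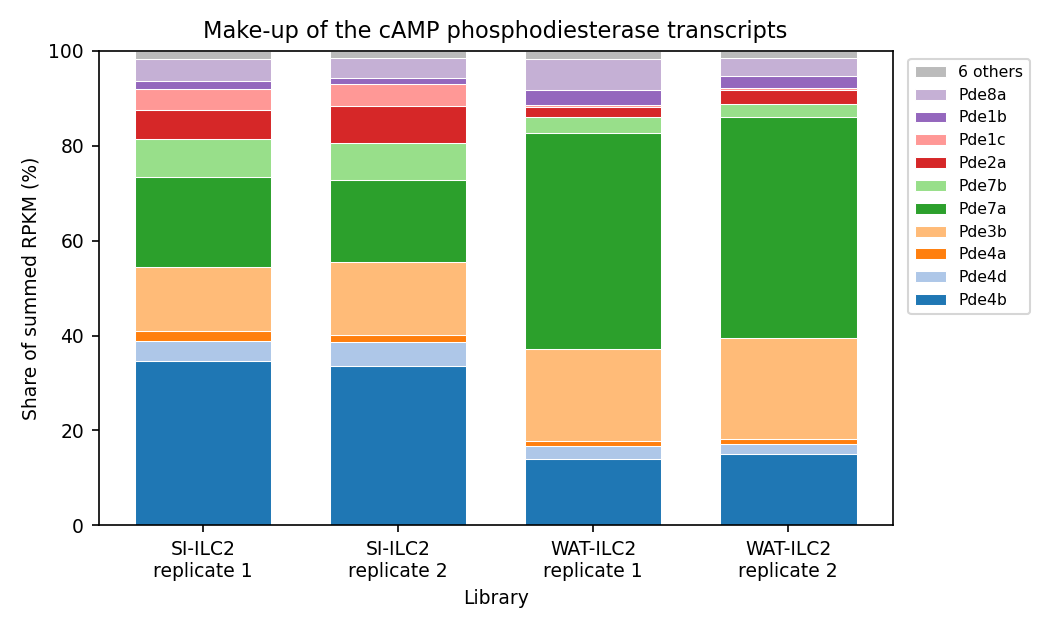
Share of each gene in the summed RPKM of the 16 cAMP phosphodiesterase genes, in percent, with 1 bar per library. Pde4b (bottom) takes 34.6% and 33.5% of the sum in the SI-ILC2 libraries and 14.03% and 15.01% in the WAT-ILC2 libraries, and Pde7a (dark green) is the largest part in the WAT-ILC2 libraries.

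Among the transcription factors at the end of the pathway, Creb1 was lower in SI-ILC2s and Crem did not pass the test. Creb1 (chromosome 1, 64532645 to 64604548), the activator that PKA phosphorylates, was at 7.60 and 7.55 RPKM in SI-ILC2s, compared with 14.7 and 15.1 in WAT-ILC2s. The replicates were close, and the mean was 1.97 times as high in WAT-ILC2s (log2 difference -0.89, SE 0.13, 95% interval -1.21 to -0.57, adjusted p = 0.0030). The difference passed in every alternative tried.

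Crem (chromosome 18, 3266048 to 3337748), which gives rise to both activators and the inducible repressor ICER, was the most abundant of the 10 genes, at 323 and 254 RPKM in SI-ILC2s, compared with 236 and 159.7 in WAT-ILC2s. Both SI-ILC2 values were above both WAT-ILC2 values, but the spread within each tissue was wide, with ratios of 1.27 and 1.48 between its libraries. The log2 difference of 0.56 (SE 0.24, 95% interval -0.03 to 1.14) had an adjusted p of 0.10, which moved with single libraries. It was 0.84 (adjusted p = 9.8e-04) without WAT-ILC2 replicate 1, 0.28 (0.34) without WAT-ILC2 replicate 2 and 0.38 (0.44) without SI-ILC2 replicate 1. With quantile normalization it was 0.30 (adjusted p = 0.27). Crem was the only gene of the 10 whose exons overlap another gene, Gm6225 on the opposite strand, and the strand setting of the counting is not known here.

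Crem exceeded Creb1 by 42.4 and 33.6 times in SI-ILC2s and by 16.1 and 10.6 times in WAT-ILC2s. Crem made up 86.8% to 95.8% of the summed RPKM of Creb1, Crem and Atf1 in every library. Atf1, the third factor of this family, was at 6.60 and 7.81 RPKM in SI-ILC2s, compared with 6.95 and 9.10 in WAT-ILC2s (adjusted p = 0.56). The CREB family and its coactivators had 6 tested genes. Toward SI-ILC2s none of them passed (17.9% of all tested genes), and toward WAT-ILC2s 2 did (29.6%). Beside Creb1 this was Crtc2, a coactivator held in the cytoplasm by salt-inducible kinases, at 5.67 and 5.76 against 8.75 and 8.16 RPKM (log2 difference -0.49, adjusted p = 0.026), a call lost with median-of-ratios scaling (adjusted p = 0.097) and quantile normalization (0.066).

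Sik1 (chromosome 17, 31844250 to 31855804), a CREB target that in turn restrains the CRTC coactivators, was at 10.4 and 14.96 RPKM in SI-ILC2s, compared with 6.76 and 11.1 in WAT-ILC2s. The tissues overlapped, and the log2 difference of 0.48 (SE 0.26, 95% interval -0.15 to 1.10) did not pass (adjusted p = 0.17). The difference was 0.80 (adjusted p = 0.0014) without WAT-ILC2 replicate 2, 0.16 (0.56) without WAT-ILC2 replicate 1, 0.24 (0.56) without SI-ILC2 replicate 2 and 0.72 (0.097) without SI-ILC2 replicate 1. Of the 3 salt-inducible kinase genes, 1 was higher in SI-ILC2s, namely Sik3, at 12.8 and 14.9 RPKM against 8.09 and 8.04 (log2 difference 0.71, SE 0.14, adjusted p = 0.0087, or 0.067 without SI-ILC2 replicate 2). Sik2 was at 2.93 and 2.63 against 1.84 and 2.28 RPKM (adjusted p = 0.13), and it passed with median-of-ratios scaling (0.049) and quantile normalization (0.043). Over all tested genes, 17.9% passed toward SI-ILC2s.

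**Figure D4:**
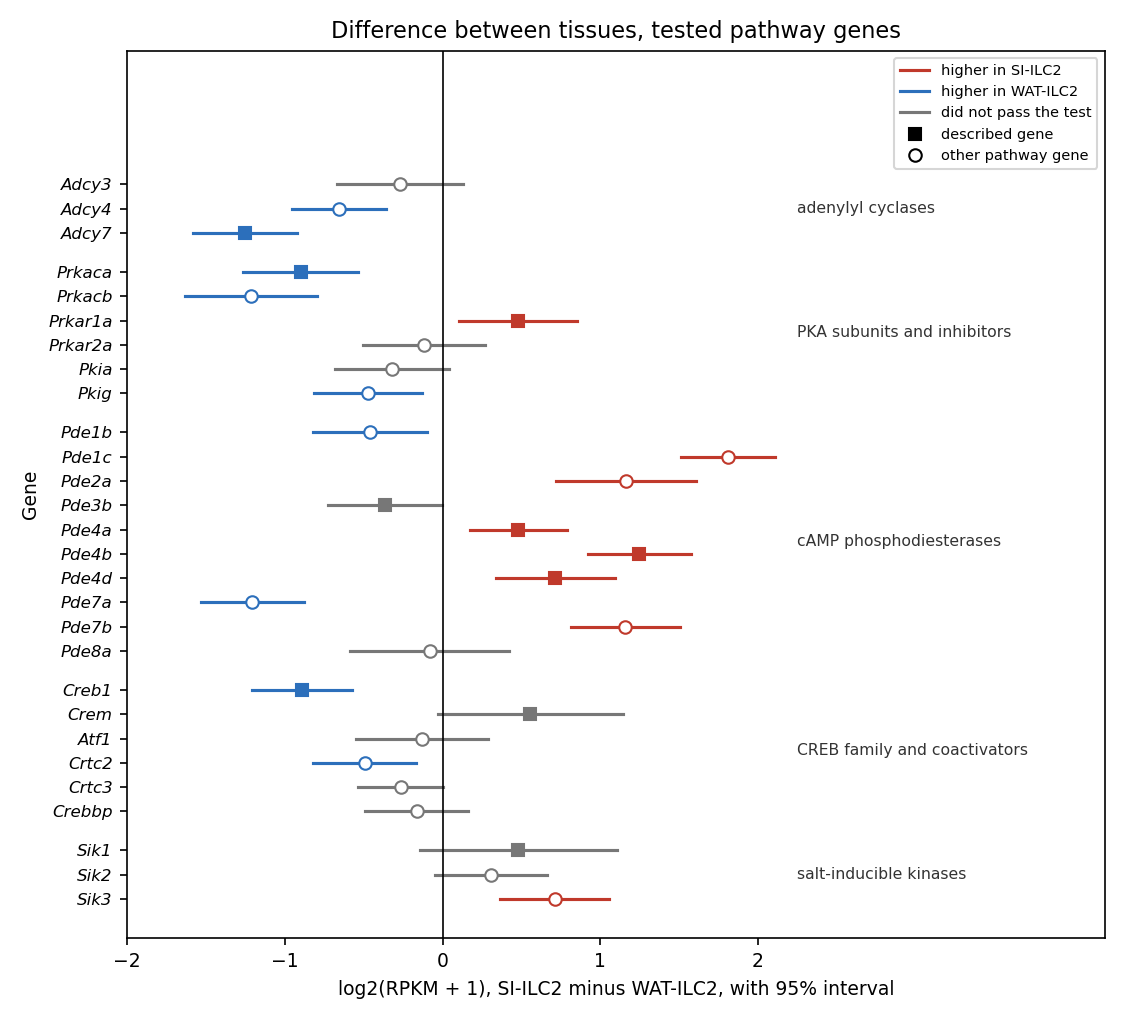
Difference between the tissues for every tested gene of 5 pathway lists, as log2(RPKM + 1) in SI-ILC2s minus WAT-ILC2s with its unadjusted 95% interval from limma. Filled squares are genes of the set of 10, open circles other pathway genes, and the colour gives the call. The PDE4 genes lie to the right of 0, and Adcy7, Prkaca, Prkacb, Pde7a and Creb1 lie to the left.

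Genes known as targets of CREB were called in both directions. As background, 17.9% of all tested genes were called toward SI-ILC2s and 29.6% toward WAT-ILC2s, and their median log2 difference was -0.15. A list of 20 CREB targets, which includes Crem, Sik1, Pde4b and Pde4d, had 17 tested genes. Of these, 5 passed toward SI-ILC2s and 5 toward WAT-ILC2s, with a median log2 difference of 0.31. The 5 toward SI-ILC2s include Pde4b and Pde4d, and Crem and Sik1 also lie above this median. The counts and the median are therefore not separate from the 10 genes described here. With median-of-ratios scaling the counts were 5 and 3, and with quantile normalization 5 and 6. Nr4a2, an orphan nuclear receptor, was at 74.2 and 82.8 against 33.6 and 39.1 RPKM (log2 difference 1.09, adjusted p = 0.0026). Its paralog Nr4a3 was at 50.1 and 51.3 against 127.6 and 129.3 RPKM (log2 difference -1.32, adjusted p = 0.0010). Cebpb, a transcription factor gene, was at 38.04 and 53.8 against 113.8 and 142.2 RPKM (log2 difference -1.47, adjusted p = 0.0029), and Dusp1, a phosphatase of MAP kinases, at 259 and 238 against 555 and 564 RPKM (log2 difference -1.17, adjusted p = 0.0030). Junb was also on the WAT-ILC2 side (log2 difference -0.83, adjusted p = 0.020, or 0.065 with median-of-ratios scaling). Gem and Ptgs2 were on the SI-ILC2 side, with log2 differences of 3.89 and 5.07.

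Several of these genes also respond within minutes to other stimuli, including cell isolation. Of 16 tested immediate early genes, 4 passed toward SI-ILC2s and 8 toward WAT-ILC2s, beside 17.9% and 29.6% of all tested genes. With median-of-ratios scaling the counts were 5 and 6. The 4 were Klf2, Jun, Myc and Klf6, and the largest differences among the 8 were those of Ier3, Btg2, Jund and Zfp36. The list summed to 2331 and 2365 RPKM in SI-ILC2s, compared with 3777 and 3969 in WAT-ILC2s. The way cells were isolated and the tissue itself cannot be told apart in this design, and the part of isolation in the values of Crem, Sik1 and Pde4b was not tested.

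The libraries carried the markers of ILC2s. All 11 genes of an ILC2 list were detected, with Gata3 at 338 to 397 RPKM. Their levels did not all match between the tissues. Of the 11, 4 passed toward SI-ILC2s and 3 toward WAT-ILC2s, beside 17.9% and 29.6% of all tested genes. Il17rb was at 164.2 and 140.5 RPKM in SI-ILC2s, compared with 14.3 and 10.3 in WAT-ILC2s (log2 difference 3.54). Il1rl1 was at 14.3 and 15.4 against 65.7 and 63.4 RPKM (log2 difference -2.05). Summed markers of each other cell type were lower than Gata3 alone but not absent. Haemoglobin and Alas2 transcripts of red cells summed to 27.4 and 9.04 RPKM in SI-ILC2s, compared with 94.8 and 61.2 in WAT-ILC2s, fibroblast markers to 0.462 and 0.532 against 9.88 and 4.48, and macrophage and dendritic cell markers to 1.68 and 1.10 against 4.67 and 7.51. B and plasma cell markers summed to more in SI-ILC2s, at 24.6 and 18.9 against 3.07 and 2.49 RPKM. In those 4 lists, 0, 3, 5 and 3 genes stayed below 1 RPKM in every library, and none of their genes was at 0 in all 4 libraries. Markers of ILC3s, relatives of ILC2s, summed to 8.13 and 8.46 RPKM in SI-ILC2s, compared with 0.336 and 0.555 in WAT-ILC2s, with 3 of 5 below 1 RPKM throughout. T cell markers, mostly Cd3g, summed to 8.49 and 6.77 against 23.2 and 12.4 RPKM. Endothelial, epithelial, granulocyte and mast cell, and NK cell and ILC1 lists each stayed below 10 RPKM in every library. The part of these cells in the differences above was not tested.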

How the data were processed

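The authors deposited RPKM values, 1 column per library. Reads were aligned with STAR 2.6.0 and counted with featureCounts 1.6.0 (Subread) on GRCm38 (mm10), per the submitters' processing notes. No source used here gives the annotation, strand or multi-mapping settings. Tests for counts were not used, because RPKM is a normalized unit. Genes with at least 1 RPKM in at least 2 libraries (8230 of 22083) were tested as log2(RPKM + 1) by limma 3.58.1 under R 4.3.3 (variance trend, 4 libraries, no covariate, two-sided, 4.4 prior and 2 residual degrees of freedom), with Benjamini-Hochberg adjustment over all tested genes and a threshold of 0.05. The steps were tested on simulated data. RPKM does not correct for a few abundant transcripts, and the median log2 difference of all tested genes was -0.15, or 0.00 with median-of-ratios scaling.

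Depth was estimated by finding the number of reads at which low values of single-exon genes became whole reads (86.4% to 89.5% of values within 0.1 read, where 20% would be by chance). Read numbers per gene used GENCODE M21 exon lengths and are approximate.

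The 10 genes and the pathway and marker lists were chosen with earlier results of these data known. Named genes were the 10, up to 4 called genes per direction of each pathway list with the largest differences, those of at least 5 RPKM among phosphodiesterases, cyclases, PKA subunits and the CREB family, and the 2 most abundant markers of each other cell type, for which mostly sums are printed. Genes named outside this rule, such as Gnas, Gnai3, Adcy3, Prkar2a, Pde8a, Sik2, Il17rb and Il1rl1, were chosen with their values known. Planned comparisons of protein sequences were not analysed here. A gene of the receptor list and the counts over that list are not reported here. Coordinates and exon overlaps came from GENCODE M21 (GRCm38). Older symbols were used for 2 marker genes. Alternatives were other pseudocounts, filters and scalings, no variance trend, a replicate block and leaving out each library. Tables and figures were made with matplotlib 3.10.9, numpy 2.4.6 and pandas 2.3.3 (Python 3.11.15).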

Additional observations from a re-analysis of the deposited data

How the results depend on the processing

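No difference of the 10 genes changed its direction in any alternative. Adcy7, Prkaca, Creb1 and Pde4b passed the test in all of them, and the count of the 10 genes higher in WAT-ILC2s was 3 to 4. The count higher in SI-ILC2s was 4 as reported. It was 2 without a filter on low values and 2 with a filter of at least 5 RPKM, which left Pde4a and Pde4d untested. With quantile normalization and after rescaling to equal sums it was 3, without Prkar1a. Leaving out 1 library at a time gave 2 to 5 of the 10 genes toward SI-ILC2s (2 without either SI-ILC2 library) and 3 toward WAT-ILC2s. Over all genes, 1470 passed toward SI-ILC2s and 2436 toward WAT-ILC2s, with 983 to 1595 and 1492 to 2551 when 1 library was left out, the lowest of the latter without SI-ILC2 replicate 1. In those fits the lone library of a tissue is assumed to vary like the others. The filter of at least 5 RPKM, with fewer genes tested, gave 899 and 1182. The split was 1956 and 1817 with median-of-ratios scaling, 1772 and 1886 with quantile normalization and 1125 and 2891 after rescaling to equal sums.

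Replicate numbers are shared between tissues, but nothing says that they mark the same mice. Deviations of same-numbered libraries correlated at 0.572 across 8230 genes, which are not independent. With the replicate number as a block, 2271 and 3430 genes were called, and 6 and 4 of the 10 genes, with Crem (adjusted p = 2.0e-05), Sik1 (8.6e-05) and Pde3b (0.0012) added.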

Other observations

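Adora2a, the gene of an adenosine receptor that raises cAMP, varied more within each tissue than between the tissues. It was at 10.8 and 37.9 RPKM in the SI-ILC2 libraries and at 6.77 and 34.3 in the WAT-ILC2 libraries, with replicate 2 the higher in each tissue (log2 difference 0.37, limma adjusted p = 0.715). Nr4a1, an immediate early gene and CREB target, was at 98.7 and 153.6 RPKM in SI-ILC2s, compared with 66.8 and 146.3 in WAT-ILC2s (adjusted p = 0.53). Both genes were singled out after their values were seen.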
